A study of Homo sapiens with 6 samples.

Results

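The 10 genes described here belong to the interleukin 6 (IL6) family: 5 cytokines (IL6, IL11, LIF, CLCF1 and CTF1), 3 receptor chains (IL6ST, LIFR and OSMR), the transcription factor STAT3 and its feedback inhibitor SOCS3. They are 10 of 60554 gene identifiers in each count file, and 9 of the 10 passed the filter on low counts that left 18683 genes for testing. The members were selected by their role in this pathway, with results of the comparison below already in view, among them lower IL11 and LIF counts with wild-type ZBTB7B. The differences of the 10 members are therefore given as a description, without a test. For a longer list of other pathway genes, single-gene tests are given. That list was also written with results of this comparison known, so its counts are no independent evidence either.

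RNA was sequenced from Daoy cells, an established human medulloblastoma line, in 6 libraries. In 3 libraries (WT) the cells overexpressed wild-type ZBTB7B, and in 3 libraries (ZFmut) they overexpressed ZBTB7B with the substitution R363L in the zinc-finger domain, which is the part of this transcription factor that binds DNA. The transgenes came by lentiviral infection (multiplicity of infection 15) in both groups, with 72 hours of virus and 4 days of culture in medium with serum, and no library without a transgene was analysed here. The comparison asks which transcripts differ when the zinc-finger domain of the overexpressed protein is intact.

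The cytokines among the members all act through the shared receptor chain gp130, the product of IL6ST. IL-6 and IL-11 bind a private alpha receptor and a gp130 pair, whereas LIF, cardiotrophin 1 and CLCF1 join gp130 to the LIF receptor, and oncostatin M joins gp130 to OSMR or LIFR. The receptors activate JAK kinases, which phosphorylate STAT3. STAT3 then induces SOCS3, which binds gp130 and JAK and ends the signal. In the nervous system the family is known for neuron survival and for directing precursor cells toward astrocytes.

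Gene counts per library ran from 22236214 to 102730428, with the deepest library in ZFmut (replicate 3). ZBTB7B itself was at 863 to 951 CPM (read counts scaled to a common library size, per 1e6 reads) in WT and at 547 to 627 CPM in ZFmut, so the groups differed in transgene level as well as in its sequence (log2 difference, WT minus ZFmut, 0.65 ± 0.06 SE; edgeR adjusted p = 1.39e-06, n = 3 and 3); cell and transgene transcripts are not separated in these counts. The neural and mesenchymal markers NES, VIM and CD44 summed to 1096 to 1295 CPM, with NES and CD44 lower with WT, and the hedgehog pathway genes GLI1, GLI2 and PTCH1 to 94.4 to 108 CPM. GLI1 and PTCH1 were higher with WT (log2 difference 0.34 and 0.14, edgeR adjusted p = 0.00734 and 0.0472). GLI2 did not pass, at -0.19 (edgeR adjusted p = 0.145). Of markers of other cells, 6 leukocyte genes, mostly CSF1R, summed to 5.25 to 5.72 CPM in WT and 6.30 to 6.38 CPM in ZFmut, with ITGAM lower with WT (log2 difference -1.50, edgeR adjusted p = 0.00418). CSF1R and CD14 did not pass. PTPRC, which was not tested, went the other way, at means of 0.156 CPM in WT and 0.0312 CPM in ZFmut with overlapping groups. The 2 hepatocyte genes summed to at most 0.167 CPM. The 4 endothelial genes summed to 1.61 to 2.003 CPM in WT and 2.795 to 3.35 CPM in ZFmut. PECAM1 made up most of this shift, at means of 0.303 and 1.37 CPM (log2 difference -2.10, edgeR adjusted p = 4.09e-05). VWF and KDR did not pass, and CDH5 was not tested. The epithelial genes EPCAM and CDH1 summed to 2.91 to 3.70 CPM in WT and 0.848 to 0.876 CPM in ZFmut. CDH1 made up most of that difference, and the part of these marker shifts in the results below was not tested.

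The 4 cytokine genes that passed the filter were lower in every WT library than in any ZFmut library, whereas STAT3 and the receptor genes LIFR and OSMR were higher in every WT library. SOCS3, the inhibitor, was lower in all WT libraries. IL6ST overlapped between groups, and IL6 was close to the limit of detection. Among the 9 tested members, 3 had an adjusted p under 0.05 in the higher direction and 5 in the lower direction, beside 18.4% and 17.2% of all tested genes (35.6% in either direction). For 8 members the CPM of the groups did not overlap, beside 47.2% of all tested genes. Because members were picked with this contrast known, nothing is read from these counts. In bulk RNA, fewer cells that express a gene and less RNA per cell cannot be told apart.

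**Figure D1:**
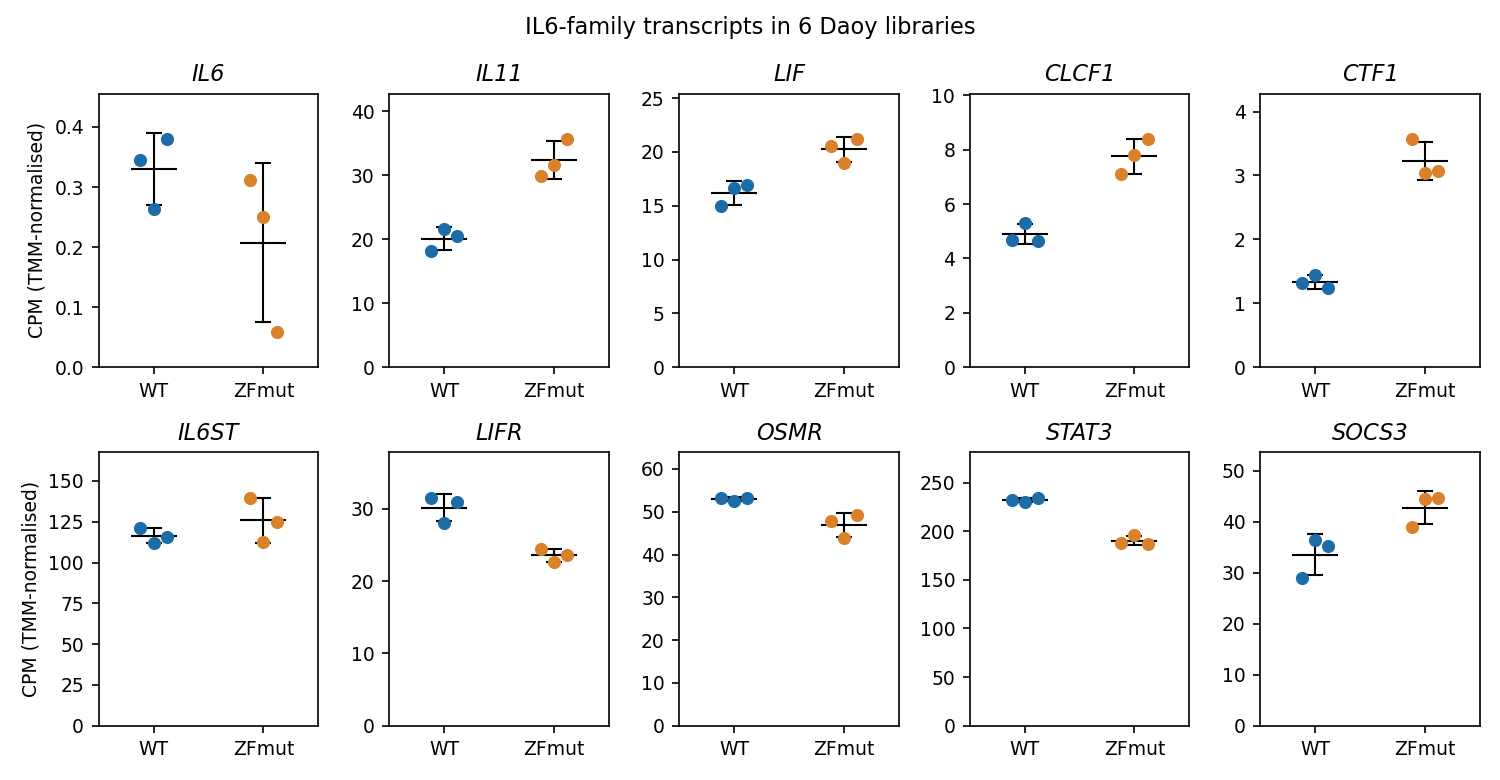
Level of each of the 10 genes in CPM (linear axis from 0, own scale per gene) in the 3 WT and 3 ZFmut libraries; points are libraries in replicate order, the wide bar is the mean and the whiskers are 1 SD. IL11, LIF, CLCF1, CTF1 and SOCS3 lie lower in WT, LIFR, OSMR and STAT3 lie higher in WT, and IL6 and IL6ST overlap.

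Sequence before the transcription start is shown for IL11, the cytokine with the highest level per length, and for LIFR, the receptor member with the largest difference, because each holds a searched motif. The RefSeq promoter table (GRCh38.p14) had 10 windows for 7 of the 10 members; LIF, CLCF1 and CTF1 had no entry. The 250 bases before each start were searched on both strands for TTCNNNGAA (STAT), TGANTCA (AP-1), TGACGTCA (cyclic AMP response element), TATAAA (the box named after it) and the NF-kB motif. Of the 10 windows, 6 held none of these motifs. Both windows below are written 5′ to 3′ on the minus strand, the coding strand of each gene, with the matched motif in capitals. IL11 is at chr19:55370464-55370713 and LIFR, at 1 of its 3 starts in the table, at chr5:38595406-38595655.

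IL11: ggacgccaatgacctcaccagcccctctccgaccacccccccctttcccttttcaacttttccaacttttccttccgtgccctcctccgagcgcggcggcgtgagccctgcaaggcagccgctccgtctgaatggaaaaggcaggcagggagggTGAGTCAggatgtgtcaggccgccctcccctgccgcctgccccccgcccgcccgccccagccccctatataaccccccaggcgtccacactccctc

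LIFR: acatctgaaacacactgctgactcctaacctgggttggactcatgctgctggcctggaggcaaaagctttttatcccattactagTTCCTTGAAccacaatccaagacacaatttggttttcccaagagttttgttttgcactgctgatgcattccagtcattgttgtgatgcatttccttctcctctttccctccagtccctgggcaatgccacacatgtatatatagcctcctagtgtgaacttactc

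In IL11 the capitals mark an AP-1 match at positions -96 to -90 from the start. In LIFR they mark a STAT match at -165 to -157. A second LIFR window held another STAT match, at -182 to -174, and overlapping TATA box matches on both strands. The remaining LIFR window held none of the searched motifs, and which start these cells use was not determined. The IL6 window held the NF-kB match at -73 to -64. Of 35116 windows of the same length in the table, 6.57% held a STAT match, 6.57% an AP-1 match, 5.67% an NF-kB match, 1.65% a cyclic AMP response element and 10.7% a TATA box. These are matches of letters, and binding was not measured.

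Among the cytokines, IL11 (ENSG00000095752.6, chromosome 19, 55364389 to 55370463, minus strand) had the highest level in both groups. IL-11 acts on bone, megakaryocytes and fibroblasts. IL11 was at 18.1, 21.6 and 20.4 CPM in WT replicates 1 to 3, and at 29.8, 31.6 and 35.6 CPM in ZFmut replicates 1 to 3. The highest WT library lay below the lowest ZFmut library by a wide margin. The means were 20.1 ± 1.79 and 32.4 ± 2.99 CPM (SD, n = 3 each), 1.62-fold lower with WT, a log2 difference of -0.70 ± 0.08 (SE).

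LIF (ENSG00000128342.4, chromosome 22, 30240447 to 30246851, minus strand), which keeps mouse embryonic stem cells undifferentiated and acts on neural precursors, was at 15.0, 16.6 and 17.0 CPM in the WT libraries. In the ZFmut libraries it was at 20.5, 19.0 and 21.2 CPM. The groups were separate but close, with means of 16.2 ± 1.08 and 20.2 ± 1.13 CPM (SD, n = 3 each). LIF was 1.25-fold lower with WT, the smallest difference among the 4 tested cytokine members, at -0.33 ± 0.08 on the log2 scale.

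CLCF1 (ENSG00000175505.10, chromosome 11, 67364168 to 67374177, minus strand) encodes a cytokine that acts on the receptor of ciliary neurotrophic factor. It was at 4.70, 5.31 and 4.65 CPM with WT and at 7.09, 7.80 and 8.39 CPM with ZFmut. Every ZFmut library lay above every WT library, and the mean was 1.60-fold lower with WT (4.89 ± 0.370 against 7.76 ± 0.650 CPM, SD, n = 3 each; log2 difference -0.67 ± 0.11, SE). A readthrough transcript, AP003419.1, shares 3.09% of the exon sequence of CLCF1 on the same strand.

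CTF1 (ENSG00000150281.6, chromosome 16, 30896607 to 30903560, plus strand), the gene of cardiotrophin 1, which promotes survival of heart muscle cells and motor neurons, had the largest difference among the 9 tested members. Its level was low, at 1.31, 1.44 and 1.23 CPM in WT and at 3.57, 3.05 and 3.07 CPM in ZFmut, from 38 to 313 reads per library. No WT library came near a ZFmut library. The means of 1.33 ± 0.105 and 3.23 ± 0.295 CPM (SD, n = 3 each) gave a 2.37-fold lower level with WT, a log2 difference of -1.24 ± 0.15 (SE).

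IL6 (ENSG00000136244.11, chromosome 7, 22725884 to 22732002, plus strand), the founding cytokine of the family and an inducer of the acute-phase response, did not pass the filter. It had 10, 15 and 12 reads in WT replicates 1 to 3 and 7, 6 and 6 reads in ZFmut replicates 1 to 3. These correspond to 0.345, 0.264 and 0.380 CPM, and to 0.312, 0.250 and 0.0589 CPM. ZFmut replicate 3, the deepest library, had the lowest level, with an exact Poisson 95% interval of 0.0216 to 0.128 CPM. That interval lay below those of the 3 WT libraries and overlapped those of ZFmut replicates 1 and 2. Over all libraries 37 reads with WT and 19 with ZFmut gave a ratio of 2.46 (95% exact binomial interval 1.38 to 4.53), and without ZFmut replicate 3 the ratio was 1.12 (0.584 to 2.31). The intervals cover counting error only. A difference in IL6 between groups was thus carried by 1 library, and 20.7% of the exon sequence of IL6 overlaps genes on the other strand.

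Of the receptor chains, LIFR (ENSG00000113594.9, chromosome 5, 38474963 to 38608354, minus strand), which binds LIF and pairs with gp130, was at 31.6, 28.1 and 30.9 CPM with WT and at 24.4, 22.7 and 23.6 CPM with ZFmut. The groups were separate. The means were 30.2 ± 1.85 and 23.6 ± 0.855 CPM (SD, n = 3 each), 1.28-fold higher with WT, or 0.35 ± 0.07 (SE) on the log2 scale. After correction for GC content and exon length the log2 difference was 0.16. LIFR lies 237.5 kb from OSMR, with no tested protein-coding gene wholly between them.

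OSMR (ENSG00000145623.12, chromosome 5, 38845858 to 38945596, plus strand), the receptor chain for oncostatin M, was at 53.1, 52.5 and 53.3 CPM with WT. With ZFmut it was at 47.8, 43.8 and 49.2 CPM. The WT libraries were tightly grouped above the ZFmut ones, at 53.0 ± 0.398 against 47.0 ± 2.82 CPM (SD, n = 3 each). The difference of 1.12-fold, 0.17 ± 0.06 (SE) on the log2 scale, was the smallest of the members counted above, and 0.08 after GC and length correction. OSMR left that count in 9 of 16 alternative fits, among them each fit without a WT library and the fit without ZFmut replicate 2. In those leave-out fits the log2 difference was 0.12 to 0.18. It was 0.16 without ZFmut replicate 1 and 0.21 without ZFmut replicate 3, where OSMR stayed in the count.

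IL6ST (ENSG00000134352.19, chromosome 5, 55935095 to 55994993, minus strand), the gene of gp130, was at 121, 112 and 116 CPM with WT and at 139.8, 112 and 125 CPM with ZFmut. The ranges overlapped, since ZFmut replicate 2 lay between the lowest and the highest WT library. The log2 difference was -0.11 ± 0.07 (SE), with means of 116 ± 4.55 and 126 ± 13.7 CPM (SD, n = 3 each). It was -0.28 after GC and length correction, both alone and with the replicate block, -0.11 with the block alone and -0.19 without ZFmut replicate 2. In each of these fits IL6ST entered the lower count, and in 12 of 16 alternatives it did not.

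STAT3 (ENSG00000168610.14, chromosome 17, 42313324 to 42388568, minus strand), the transcription factor that carries the signal to the nucleus, was the most abundant member. It was at 232, 230.4 and 235 CPM with WT and at 188, 196 and 187 CPM with ZFmut. Libraries within a group differed little and the groups were far apart relative to that spread. STAT3 was 1.22-fold higher with WT, at 232 ± 2.08 against 190.2 ± 4.69 CPM (SD, n = 3 each), a log2 difference of 0.29 ± 0.05 (SE) that stayed within 0.27 to 0.31 over 16 alternative fits.

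SOCS3 (ENSG00000184557.4, chromosome 17, 78356778 to 78360077, minus strand), itself induced by STAT3, went the opposite way. It was at 29.04, 36.4 and 35.2 CPM with WT and at 39.0, 44.5 and 44.8 CPM with ZFmut. Replicate 1 was the lowest library of each group, and the highest WT library still lay below the lowest ZFmut library. SOCS3 was 1.27-fold lower with WT, at 33.6 ± 3.96 against 42.8 ± 3.23 CPM (SD, n = 3 each), or -0.35 ± 0.08 (SE) on the log2 scale and -0.19 after GC and length correction.

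Levels were compared between genes per kb of exon sequence, counting every annotated exon. In ZFmut the order was STAT3 at 21.6, SOCS3 at 15.6, IL6ST at 13.5, IL11 at 12.1, OSMR at 6.55, LIF at 5.10, CLCF1 at 3.93, LIFR at 1.99, CTF1 at 1.94 and IL6 at 0.100 CPM per kb. The library ranges of SOCS3 and IL6ST, of IL6ST and IL11, and of LIFR and CTF1 overlapped there. In WT, STAT3 was at 26.4, IL6ST at 12.5, SOCS3 at 12.3, IL11 at 7.51, OSMR at 7.39, LIF at 4.08, LIFR at 2.54, CLCF1 at 2.47, CTF1 at 0.799 and IL6 at 0.159 CPM per kb. The ranges of IL6ST and SOCS3, of IL11 and OSMR, and of LIFR and CLCF1 overlapped. IL11 thus stood above OSMR in ZFmut and overlapped it in WT, and CLCF1 stood above LIFR in ZFmut and overlapped it in WT.

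**Figure D2:**
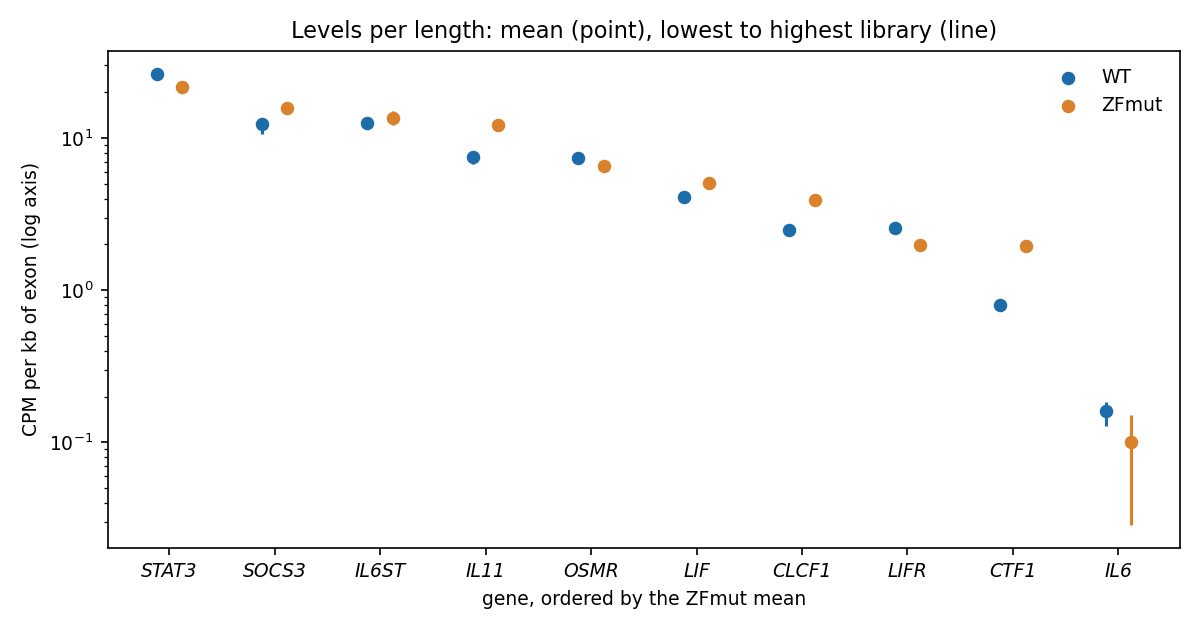
Level of each gene in CPM per kb of exon (log axis), ordered by the ZFmut mean; points are means of 3 libraries and lines run from the lowest to the highest library. IL11 is at 12.1 in ZFmut and at 7.51 in WT, where its range overlaps that of OSMR at 7.39, while IL6 lies far below the rest in both groups.

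Base composition differed among the members. The GC content of the longest transcript was 55.6% for IL11, 56.9% for LIF, 57.1% for CLCF1, 62.9% for CTF1 and 60.0% for SOCS3, all lower with WT, against 36.2% for LIFR, 45.2% for OSMR and 50.4% for STAT3, all higher with WT (median of tested genes 48.7%). IL6ST, at -0.11 on the log2 scale, had a GC content of 36.6%, near that of LIFR, and the untested IL6 one of 44.5%. After correction for GC content and exon length, IL11 was at -0.60, LIF at -0.22, CLCF1 at -0.56 and CTF1 at -1.07 on the log2 scale, and STAT3 at 0.28. All 9 tested members kept their direction over the alternative fits, while LIF, SOCS3, LIFR and OSMR came closer to 0 by over 1.5 times on the log2 scale under that correction and IL6ST moved away from it.

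**Figure D3:**
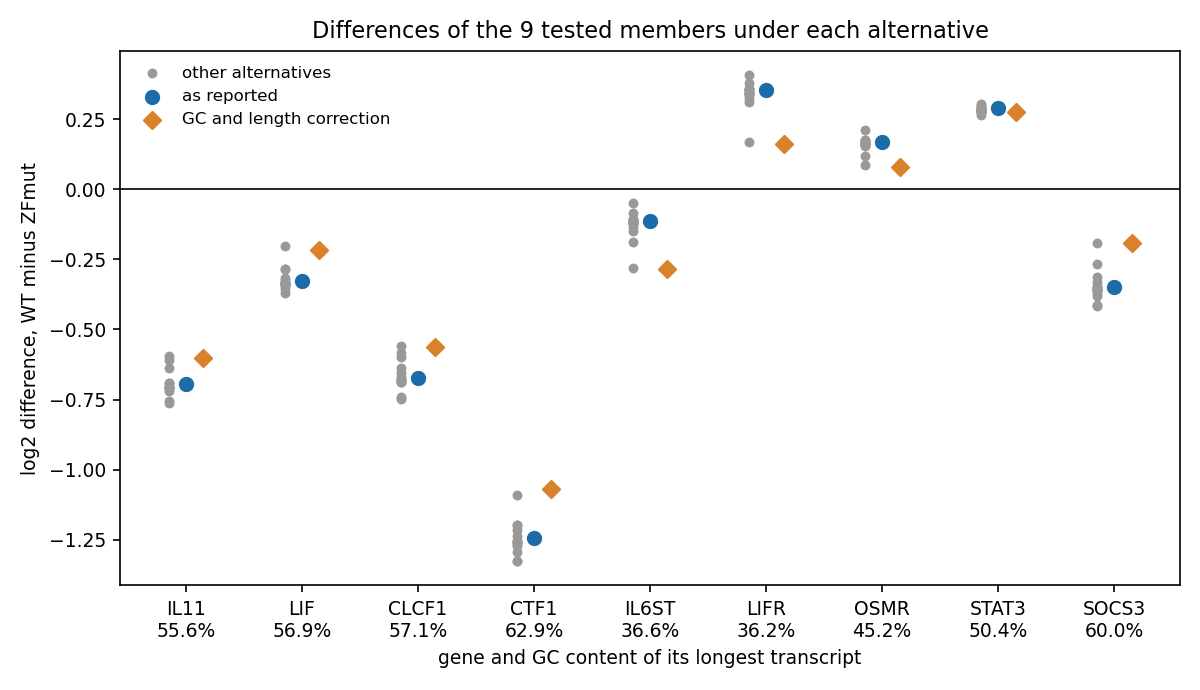
Log2 difference, WT minus ZFmut, of the 9 tested members as reported (blue), after correction for GC content and exon length (orange diamonds) and under the other alternative fits (grey), with the GC content of each gene under its name. Correction moves LIFR from 0.35 to 0.16 and SOCS3 from -0.35 to -0.19, and leaves STAT3 near 0.28.

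Beyond the members, 54 genes of the pathway were listed by role, of which 45 passed the filter. By edgeR's quasi-likelihood test with Benjamini-Hochberg adjustment over all 18683 genes, 11 were higher with WT, 9 were lower and 25 did not pass. These shares stand beside the 18.4% and 17.2% of all tested genes. The median log2 difference of the 45 was 0.08, against 0.00 over all tested genes. With GC and length correction 17 were higher and 8 lower, beside 3699 and 4167 of all 18683 tested genes.

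Among the other ligands, EBI3, a subunit of interleukin 27, was lower with WT, at 2.66 ± 0.557 CPM, than with ZFmut, at 7.38 ± 1.24 CPM (SD, n = 3 each; log2 -1.42 ± 0.15 SE, edgeR adjusted p = 6.48e-06). It was at 2.24, 3.29 and 2.44 CPM in the WT libraries and at 6.38, 8.76 and 6.999 CPM in the ZFmut libraries, so it was lower in 3 of 3. CNTF, the ciliary neurotrophic factor gene, did not pass, at -0.11; 38.7% of the exon sequence of CNTF lies in the readthrough gene ZFP91-CNTF. OSM had 4 reads in all, with 0 in 4 of the 6 libraries, and IL27 and IL31 had at most 2 reads in any library.

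The private receptor chains split. CNTFR, the alpha receptor for ciliary neurotrophic factor and CLCF1, rose with WT, from 0.625, 0.501 and 0.942 CPM in the ZFmut libraries to 3.14, 3.20 and 2.82 CPM in the WT libraries (log2 difference 1.96 ± 0.20 SE, edgeR adjusted p = 3.13e-06). The ZFmut values of CNTFR came from only 14, 12 and 96 reads. IL11RA, the alpha receptor for IL-11, fell with WT, at 5.73 ± 0.451 against 7.97 ± 0.469 CPM (SD, n = 3 each; -0.46 ± 0.10 SE, edgeR adjusted p = 0.00260); 17.4% of its exon sequence is shared with genes on its own strand. IL27RA fell as well, at 13.2 ± 0.831 against 18.3 ± 0.719 CPM (-0.48 ± 0.07, edgeR adjusted p = 0.000186). IL6R, the alpha receptor for IL-6, at 50.4 ± 1.22 against 48.0 ± 1.98 CPM, and IL31RA, at 11.4 ± 1.02 against 10.7 ± 0.891 CPM, did not pass (edgeR adjusted p = 0.328 and 0.341).

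Of 12 kinases, STAT proteins and adaptors downstream of the receptors, 5 were higher with WT and 0 lower, beside 18.4% and 17.2% of all tested genes. STAT5A rose most, at 77.3 ± 1.63 against 57.9 ± 1.65 CPM (0.41 ± 0.05, edgeR adjusted p = 1.85e-05). The kinase gene JAK2 was higher by 0.35 ± 0.08 (edgeR adjusted p = 0.00420), and by 0.21 after GC and length correction. JAK1, higher by 0.19 ± 0.05 (edgeR adjusted p = 0.0106), lost its call when WT replicate 1 or 3, or ZFmut replicate 3, was left out (0.16 to 0.18, edgeR adjusted p from 0.0536 to 0.0612), and was at 0.12 after GC and length correction. SOS1, a Ras activator, was higher by 0.22 ± 0.08 (edgeR adjusted p = 0.0355) and lost its call in the same 3 fits, in the fit without ZFmut replicate 2 and after GC and length correction (0.06). The count of higher genes was 3 in each of those 3 fits. TYK2 did not pass, at -0.14 ± 0.06 (edgeR adjusted p = 0.101), except as lower without ZFmut replicate 1 (-0.20, edgeR adjusted p = 0.0116) and with the replicate block, and was at 0.00 after GC and length correction. The remaining 6, STAT5B and PTPN11 among them, ran from -0.20 to 0.24.

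Among 8 inhibitors and phosphatases, 1 was lower and 1 higher, beside 17.2% and 18.4% of all tested genes. SOCS2, which restrains growth hormone signalling, fell with WT, at 24.7, 25.9 and 25.1 CPM with WT against 32.9, 38.4 and 36.7 CPM with ZFmut (-0.51 ± 0.07, edgeR adjusted p = 4.3e-05). CISH, another SOCS-family gene, was higher by 0.49 ± 0.18 at 3.28 ± 0.547 against 2.49 ± 0.668 CPM, with overlapping groups (edgeR adjusted p = 0.0482). Its call ended in each fit that left out replicate 2 or 3 of either group (0.30 to 0.46, edgeR adjusted p from 0.121 to 0.329). It also ended with median-of-ratios factors (edgeR adjusted p = 0.0514), with DESeq2 (adjusted p = 0.0848) and after thinning (edgeR adjusted p = 0.216). With GC and length correction 3 inhibitors and phosphatases were higher and 1 lower, beside 3699 and 4167 of all 18683 tested genes. SOCS1 did not pass, at 4.27 ± 0.139 against 3.56 ± 0.172 CPM (edgeR adjusted p = 0.0749). The protease gene ADAM10, which can shed the IL-6 receptor from the cell surface, was higher by 0.35 ± 0.07 (edgeR adjusted p = 0.00109), and by 0.17 after GC and length correction, whereas ADAM17 did not pass (0.13 ± 0.06, edgeR adjusted p = 0.138; 13.6% of its exon sequence overlaps genes on the other strand).

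Transcripts known to respond to STAT3 were split: 15 were tested, 3 rose and 5 fell, beside 18.4% and 17.2% of all tested genes. Their median log2 difference was -0.01. With GC and length correction 6 were higher and 4 lower, beside 3699 and 4167 of all 18683 tested genes. With the replicate block 5 were higher and 5 lower, beside 4466 and 4226 of all 18683. CEBPD rose by 0.61 ± 0.11, at 46.7 ± 6.93 against 30.6 ± 4.38 CPM (SD, n = 3 each; edgeR adjusted p = 0.000445), and BCL2L1, a survival gene, by 0.31 ± 0.07 (edgeR adjusted p = 0.00268), although 43.0% of the exon sequence of BCL2L1 overlaps a gene on the other strand. CEBPB fell by 0.44 ± 0.09 on the log2 scale, from a mean of 84.1 ± 10.2 CPM to 62.1 ± 8.02 CPM ( edgeR adjusted p = 0.00191), and so did JUNB, at -0.32 ± 0.07 (edgeR adjusted p = 0.00310). CEBPD, with 70.0% GC, was at 0.71 after GC and length correction, and CEBPB, with 66.2% GC, was at -0.28. JUNB was at -0.16 and BCL3 at -0.19 under the same correction. The other 4 were MYC at -0.26, BCL3 at -0.33, GFAP at -0.80 and IRF1 at 0.20, of which BCL3 lost its call without ZFmut replicate 3 (edgeR adjusted p = 0.0666), and IRF1 and GFAP lost theirs without any of 4 single libraries (edgeR adjusted p from 0.0520 to 0.114 for IRF1 and from 0.0976 to 0.155 for GFAP). GFAP also lost its call with DESeq2, with limma-voom, after GC and length correction and after thinning (adjusted p from 0.0502 with limma-voom to 0.129 with thinning in edgeR). The count of lower genes in this role was 3 without ZFmut replicate 3, beside 2266 of all 19037 tested genes. That of higher genes was 2 when replicate 1 or 2 of either group was left out, beside 2825 to 3782 of 19010 to 19326 tested genes. The 7 that did not pass, PIM1, MCL1, BCL6, CCND1, FOS, TIMP1 and VEGFA, ran from -0.06 to 0.22. The acute-phase and related genes (SERPINA3, A2M, FGB, FGL1, HP and LBP) had at most 11 reads in any library and were not tested.

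**Figure D4:**
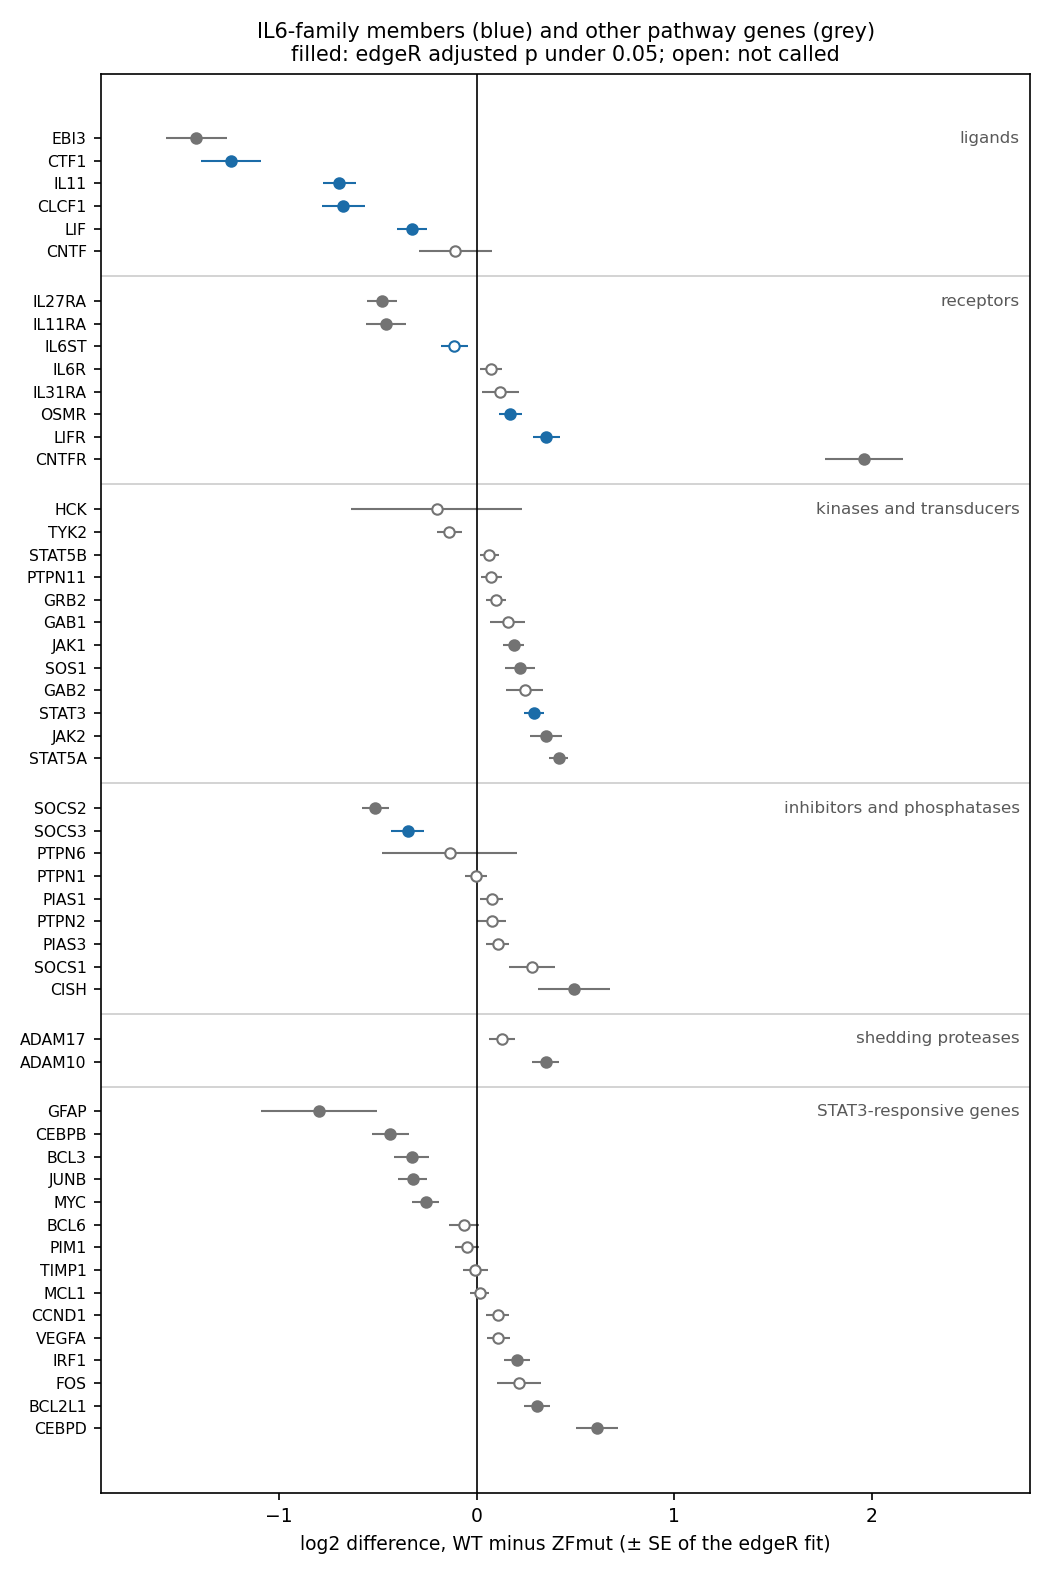
Log2 difference, WT minus ZFmut, with the SE of the edgeR fit, for the 9 tested members (blue) and 43 of the other tested pathway genes (grey), grouped by role; filled points have an adjusted p under 0.05 over all tested genes and open points do not. The 6 ligand genes drawn all lie left of 0, and not every tested ligand gene is drawn. Of the 6, 5 are filled, beside 35.6% of all tested genes, and 4 are members picked with this contrast known. Kinases and transducers that are filled lie right of 0. Nothing is read from these counts.

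The genes whose 6 log2 CPM values, centred on their own mean, lay nearest to those of CTF1 were TSPOAP1, PKIB and CCKAR (Euclidean distances of 0.19, 0.24 and 0.24 over 6 libraries, among 13334 protein-coding genes). For LIFR they were HTATIP2, F2RL1 and ANO6, with distances of 0.03 each. This is a likeness of values over 6 libraries in 2 groups and says nothing of function.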

How the data were processed

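For each of 6 libraries, 3 per group, the authors deposited a raw read count per Ensembl gene. The submitters' processing notes name GRCh38, HTSeq, cutadapt, DESeq2 and TopHat2 2.0.9. No order of steps, annotation release or strand setting is given in the sources used here. Among members other than IL6, genes on the other strand overlap 8.58% of the exon sequence of IL6ST, 6.73% of LIF, 5.30% of LIFR and 3.19% of OSMR. Summary lines that name no gene were left out; they held 7.71 to 8.08% (reads fitting several genes), 5.04 to 6.56% (no gene) and 16.1 to 19.4% (several places) of each total. GENCODE release 29 matched 94.1% of identifiers and gave symbols, positions and exon lengths. Libraries of a group differed beyond sampling noise (chi-square per degree of freedom 3.42 to 8.00). The labels do not say that replicates were separate cultures, and p-values therefore cover only variation among these 6 libraries, possibly technical.

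WT and ZFmut were compared in R 4.3.3 with edgeR 4.0.16 (filterByExpr, TMM, two-sided quasi-likelihood F test, no covariates), adjusted by Benjamini-Hochberg over all tested genes at 0.05. The edgeR, limma-voom, DESeq2 and GC and length fits were also run on simulated counts. Those counts had the same relative spread for all genes and no GC, length or replicate effects. Nothing about these libraries is read from them. CPM use TMM library sizes. Alternatives were median-of-ratios and upper-quartile factors, DESeq2 1.42.0, limma-voom (limma 3.58.1), no filter, a filter of 5 CPM in 3 libraries, the replicate block, offsets for GC content and exon length (loess, span 0.5) alone and with the block, thinning to the smallest total, and leaving out each library. Counts over the pathway list include 2 genes whose own values are not reported here. Members and lists were chosen with earlier results of these data known. Named were all members, the tested other receptors and JAKs, up to 4 called genes per other role, and the 3 genes nearest to the called member with the largest difference in each direction (at least 1 CPM); MYC, BCL3, IRF1, GFAP, further genes that did not pass or were not tested, and the promoter windows shown were added after values were seen.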

Additional observations from a re-analysis of the deposited data

How the results depend on the processing

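Over the alternatives in which each was fitted, the 9 tested members kept their direction, and IL11, LIF, CLCF1, CTF1, LIFR, STAT3 and SOCS3 kept their side of the threshold; OSMR and IL6ST did not, and the cause was not tested. Counts of higher and lower members stayed within 1.5 times of those reported, at 2 to 4 higher and 5 to 6 lower when a library was left out, with IL6 tested and counted as higher, at 1.63, without ZFmut replicate 1. Of the other pathway genes, 17 were higher with GC and length correction and 18 with that correction and the replicate block, against 11. Lower were 8 and 9 in these fits, against 9. The cause was not tested. Leaving out a library gave 8 to 11 higher and 7 to 9 lower other pathway genes. GC and length correction gave 3699 higher and 4167 lower over all genes, and 3839 and 4390 with the block. Over all genes, leaving out a library gave 2504 to 3782 higher and 2266 to 3934 lower, against 3442 and 3207. CTF1, CNTFR, CISH and GFAP have no value under the filter of 5 CPM in 3 libraries. Deviations of same-numbered libraries of the groups correlated at 0.164, 0.077 and 0.064, and every library correlated best with its own number. These low values do not settle whether the numbers mark pairs. The reported fit does not take them as pairs. With the replicate block 16 other pathway genes were higher and 10 lower, and 4466 and 4226 genes over all. Low counts limit IL6, CTF1, CNTF, CNTFR, GFAP and the untested genes, among others.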
